A study of Mus musculus with 14 samples.

Results

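The comparison described here set sorted intestinal stem cells against whole intestinal organoids and used 5 of the 14 arrays of the series. The groups were taken from the labels, and 1 labelled array was then left out for its expression values. The members were 3 arrays of stem cells from untreated control cultures of small intestine (control SI SCs) and arrays 2 and 3 of small intestinal organoids kept in intestinal medium (SI organoids in SI medium). Array 1 of those organoids was the one left out, because its profile was stomach-like with low Cdx2, and its values are given for some of the genes below. Both groups were of genotype Cdx2-/fl / Lgr5-EGFP, with 1 deleted and 1 floxed allele of the intestinal homeobox gene Cdx2. The control cells had received no tamoxifen, so that the floxed allele was left in place. The stem cells were the Lgr5-EGFP-high fraction, sorted by flow cytometry from organoids that had been taken apart into single cells. EGFP and CreERT2 are driven by the Lgr5 locus in these mice. The sorted cells came from clonal organoids, each grown from a single cell, for which the labels give gastric medium (Sto medium, ENRWfg: EGF, Noggin and R-spondin with Wnt3a, Fgf10 and gastrin). The study names that medium for the sort of 2 samples of each type of stem cell, which leaves out 1 of the 3 arrays used here. The organoids were RNA of all their cells after culture in SI medium (ENR: EGF, Noggin and R-spondin), to which the labels say they were moved to induce differentiation. The study's text calls the organoids on its arrays wild type, where the labels give the genotype above. It describes those organoids as grown from glands and crypts, whereas the sorted cells came from clonal cultures. Sorting, dissociation, medium and, by that description, culture origin therefore changed together. Their parts in any difference below cannot be told apart by these 5 arrays. Sex was not balanced between the groups either, as given below.

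The epithelium of the small intestine is renewed from Lgr5-positive stem cells at the base of the crypts. Wnt signals, which R-spondin strengthens by acting through Lgr5 and its relatives, keep these cells dividing, and Notch signals hold back the secretory fate. Daughter cells that leave the niche become absorptive enterocytes, which digest and take up sugars, peptides and fat, or secretory cells: mucus-producing goblet cells, antimicrobial Paneth cells, hormone-producing enteroendocrine cells and chemosensory tuft cells. Organoids grown in SI medium hold stem cells together with these descendants, and added Wnt is known to keep such cultures in a crypt-like state.

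Expression values were the authors' RMA values on the log2 scale, so that a difference of 1 is a 2-fold change. Control SI SCs expressed Cdx2 at 9.04, 10.05 and 8.94 and SI organoids in SI medium at 9.92 and 9.67, whereas the organoid array that was left out lay at 5.52. Lgr5 lay at 11.56, 11.30 and 10.79 in the sorted cells and at 9.90 and 10.28 in the organoids. The groups did not overlap in Lgr5. The difference was 1.12 ± 0.27 (SE) and missed the threshold (limma, adjusted p = 0.0852). The epithelial gene Vil1, which encodes the microvillus protein villin, was at 10.11 to 10.91 on all 5 arrays. The medians of the 5 arrays over all probe sets ran from 4.72 to 4.90. Among markers of other cell types, the collagen gene Col1a1 was at 4.70 to 5.41, the leukocyte gene Ptprc at 3.75 to 4.33 and the endothelial gene Pecam1 at 3.66 to 4.24, but Fn1, Vim, Cd68 and Lyz2 were well above the array medians in 1 of the groups and are given with their lists below. Control SI SC array 3 and organoid array 3 had been exported in another form than the other arrays, with upper quartiles of 7.50 and 7.57 against 7.79 to 7.90 on the others, and whether they were normalized together with the others is not given in the sources used here. The titles number these arrays 3, whereas another label field of each ends in 1, and the titles were followed. By Xist and the Y-linked gene Kdm5d, control SI SC arrays 1 and 3 were male, and control SI SC array 2 and both organoid arrays were female. No source used here says that the arrays of a group came from separate animals, so p-values measure the spread between these samples, which may be partly technical.

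Of 18820 genes, 760 differed between the groups at an adjusted p under 0.05 (limma, Benjamini-Hochberg) and at least 2-fold, which is 4.04% of the genes tested. Of these, 296 (1.57%) were higher and 464 (2.47%) lower in control SI SCs. The median difference of all genes was 0.04. The falls were the larger changes: 151 genes fell at least 8-fold and 89 at least 16-fold, whereas 36 rose at least 8-fold and 11 at least 16-fold. In 181 of the 464 genes that fell, the mean of the sorted cells lay under the lowest array median, so their true fold may be larger than measured. The 3 sorted arrays did not overlap with the 2 organoid arrays in any of the 760 genes. Over all genes, 27.2% did not overlap. Within the arrays of the first export type (2 sorted against 1 organoid array) 726 of the 760 differences were at least 2-fold in the same direction, and within the other type (1 against 1) 734 were. Groups that do not overlap keep their direction in any subset. The genes were also chosen for a difference of at least 2-fold over these same arrays, which favours the sizes too. The 726 and 734 are therefore a description and no separate evidence. With export type as a block 1055 genes were called, 752 of them among the 760. The number of calls was 368 without control SI SC array 1, 401 without organoid array 3 and 372 with sex as a term, and 292 genes (69 higher, 223 lower) were called whichever of the 5 arrays was left out. With the stomach-like organoid array back in its labelled group, 5 genes were called. These were Arc, Fah and Pla2g2a (higher in the sorted cells) and Il18 and Otop3 (lower).

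**Figure D1:**
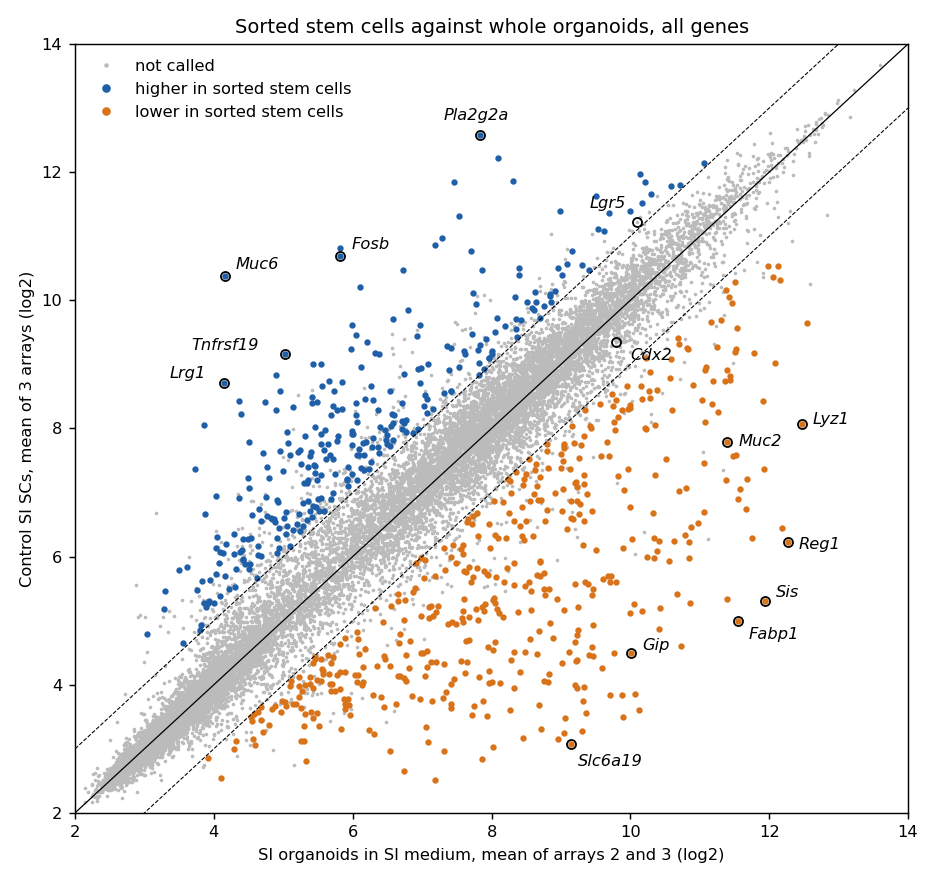
Mean RMA expression (log2) of control SI SCs (vertical, 3 arrays) against SI organoids in SI medium (horizontal, arrays 2 and 3), with 1 point for each of 18820 genes, the 296 higher and 464 lower genes in colour, a solid line of equality and dashed lines at 2-fold. Muc6, Fosb, Pla2g2a, Tnfrsf19 and Lrg1 lie far above the line, Sis, Fabp1, Slc6a19, Reg1 and Gip far below it, and Lgr5 and Cdx2 are not called.

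Genes of the intestinal stem cell were called in both directions. Of 27 measured members of the list, 4 rose, 4 fell and 19 were not called, with a median difference of 0.50. Over all genes 1.57% rose and 2.47% fell. The number that rose was 9 without control SI SC array 3 and 1 without control SI SC array 1, control SI SC array 2 or organoid array 3, and the number that fell was 1 without control SI SC array 1 or organoid array 3 and 2 without organoid array 2. Tnfrsf19, a Wnt-induced receptor of the tumour necrosis factor family also known as Troy, was at 9.27, 9.32 and 8.90 in the sorted cells and at 5.23 and 4.82 in the organoids, a rise of 4.14 ± 0.23 (SE, limma adjusted p = 0.000235, 17.6-fold). The transcription factor Ascl2, which works with Wnt signals to maintain the stem cell state, was at 9.73, 9.67 and 9.09 against 8.19 and 7.92. The groups were apart by 1.45 ± 0.25 (limma adjusted p = 0.0272). The surface glycoprotein Cd44 and the insulin-like growth factor binding protein Igfbp4 rose by 1.59 and 1.67. Of the 4 genes that rose, Tnfrsf19 was called whichever array was left out. Ascl2 was called only without control SI SC array 3, and Cd44 and Igfbp4 lost the call without control SI SC array 1 or 2 or organoid array 3.

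Other genes of the list were lower in the sorted cells or level. Olfm4, which encodes a secreted glycoprotein abundant in crypt base cells, was at 7.35, 9.23 and 6.33 in the sorted cells and at 10.21 and 11.89 in the organoids. The means differed by -3.41, but the spread between arrays was wide and the gene was not called (limma adjusted p = 0.0933). Smoc2, a matrix protein gene of crypt stem cells, was at 10.06 to 10.72 in the sorted cells and 10.03 and 10.11 in the organoids, a difference of 0.28 ± 0.24 (SE). The genes that fell were the chloride channel regulators Clca4b and Clca4a, the vitamin D receptor gene Vdr and the water channel gene Aqp4. Clca4b was lowest relative to the organoids, at 4.52, 6.08 and 5.17 against 9.75 and 10.34, a fall of 4.79 on the log2 scale (limma adjusted p = 0.00206). Clca4b was also the sole one of these 4 to be called whichever array was left out.

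Of 25 measured Wnt target genes, 7 rose, 0 fell and 18 were not called, against 1.57% of all genes higher. The median difference was 0.77, with 21 members of positive and 4 of negative sign. The number that rose was 4 without organoid array 3. Sp5, a transcription factor gene induced directly by Wnt signals, was at 7.88, 7.68 and 7.17 in the sorted cells and 5.26 and 4.93 in the organoids, a rise of 2.49 ± 0.26 (SE, limma adjusted p = 0.00357). Nkd1, a feedback inhibitor of the pathway, rose by 2.46, Ptk7, a Wnt co-receptor, by 2.20, and the homeobox gene Prox1 by 2.44. Axin2, a widely used reporter of the pathway, was at 9.18, 9.58 and 8.50 against 8.14 and 8.47, with the organoids below each sorted array and no call (limma adjusted p = 0.332). Notum, which encodes a secreted Wnt deacylase, was between 3.98 and 4.80 on all 5 arrays, near the array medians. The 7 genes that rose were Tnfrsf19, Sp5, Nkd1, Ptk7, Prox1, Ascl2 and Cd44, of which 4 were called whichever array was left out.

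Proliferation genes differed little, beside shares of 1.57% called higher and 2.47% lower over all genes. Of 27 DNA replication genes 0 were called and all 27 had a positive difference, with a median of 0.56. Of 28 mitosis genes 1 was called (Bub1, a spindle checkpoint kinase gene, 1.28 ± 0.18, limma adjusted p = 0.0123), and all 28 had a positive difference, with a median of 0.66. Mki67, which encodes the proliferation antigen Ki67, was at 10.77, 10.90 and 10.17 in the sorted cells and 10.30 and 9.71 in the organoids, so that the groups overlapped. The list of ribosome biogenesis genes held 1 called gene of 27 (Ppan, 1.19), with a median of 0.47. A single call is 3.57% of the mitosis and 3.70% of the ribosome list, close to the share of all genes. Neither Bub1 nor Ppan was called in every fit that left out an array. The 14 housekeeping genes held 0 calls and a median of 0.14, and Gapdh was at 13.16 to 13.35 on all 5 arrays.

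The genes of the absorptive cell made up the largest group of falls. Over 6 lists that describe it (brush border, digestive enzymes, lipid uptake, transporters, retinoid handling and xenobiotic metabolism) 67 of 139 genes fell and 3 rose, and the median difference was -1.78, against 2.47% of all genes lower and a median of 0.04. The call held for 54 of the 67 whichever array was left out. Of 20 structural genes of the brush border 5 fell, with a list median of -0.59. The count was 3 without control SI SC array 1 or either organoid array, and 3 genes were called whichever array was left out. Among the 5 were Myo1a, a myosin of the microvillus (-2.88), and Cdhr5, an intermicrovillar cadherin (-2.23), whereas Vil1 differed by -0.31 and was not called.

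Enzymes and sugar carriers were higher in the organoids by up to 99.5-fold. Of 19 measured members 9 fell and 0 rose, with a median of -2.41. Sis, which encodes sucrase-isomaltase, was at 4.60, 5.61 and 5.71 in the sorted cells and 11.88 and 12 in the organoids, a fall of 6.64 ± 0.35 (SE, limma adjusted p = 0.000226). Sis was at 2.81 on the organoid array that was left out. The peptidase genes Mme and Enpep were at or under 4.39 in all sorted arrays and at or above 8.37 in both organoid arrays. The fructose carrier gene Slc2a5 was at 4.88, 4.99 and 4.67 against 8.97 and 9.52, and the glucose carrier gene Slc2a2 at 4.74, 4.37 and 4.45 against 9.61 and 8.62. Both sets lie apart by more than 3 log2 units. Alpi, the intestinal alkaline phosphatase gene, stayed well above the array median in the sorted cells (9.49, 8.75 and 8.83) and was at 12.32 and 11.85 in the organoids (a fall of 3.06, limma adjusted p = 0.00209). Lct, which encodes lactase, was at 4.64 and 6.23 in the organoids and at 4.08 to 4.21 in the sorted cells, without a call (limma adjusted p = 0.2).

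Lipid handling was the list with the highest share of falls. Of 24 measured genes 19 fell and 0 rose (median -2.44). The fatty acid binding protein gene Fabp1 was at 3.80, 5.29 and 5.91 in the sorted cells and 10.83 and 12.27 in the organoids, a fall of 6.55 ± 0.67 (SE, limma adjusted p = 0.00304). The apolipoprotein gene Apoa4 was at 5.41, 7.59 and 6.33 against 11.99 and 12.38. Apob, which encodes the structural protein of chylomicrons, was high in both groups and moved less, at 10.01, 9.70 and 9.38 against 11.45 and 11.15 (a fall of 1.60, limma adjusted p = 0.0163). Npc1l1, the cholesterol importer gene, and Abcg5 and Abcg8, which encode the exporter of plant sterols, fell by 4.62, 4.37 and 4.11. Control SI SC array 2 was the highest of the sorted arrays in all 3 of these genes, at 7.77, 7.09 and 7.03. Of the 19 falls, 11 were called whichever array was left out.

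Transporters of amino acids, peptides and minerals held 7 falls and 1 rise among 22 genes (median -0.93). The neutral amino acid transporter gene Slc6a19 was at 3.15, 3.12 and 2.93 in the sorted cells and at 8.68 and 9.61 in the organoids, a fall of 6.08 ± 0.29 (SE, limma adjusted p = 0.000163, 67.4-fold). The proline transporter gene Slc6a20a, the chloride exchanger gene Slc26a3 and the peptide transporter gene Slc15a1 fell by 6.13, 5.80 and 4.66. All 3 sorted arrays were at or under 5.01 in these genes. Slc9a3, which encodes the apical sodium-proton exchanger NHE3, went the other way, at 10.17, 9.36 and 9.62 against 8.37 and 7.79, a rise of 1.64 (limma adjusted p = 0.0322) that was not called without control SI SC array 1 or 3 or organoid array 3.

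Xenobiotic and steroid metabolism showed 22 falls and 1 rise among 37 genes (median -3.14), and all 22 falls were called whichever array was left out. The drug-metabolising cytochrome gene Cyp2b10 was at 5.30, 5.19 and 5.54 in the sorted cells and 11.64 and 11.14 in the organoids. Maob, a monoamine oxidase gene, was at 3.42, 4.12 and 4.03 against 9.77 and 10.37. The falls were 6.05 ± 0.23 and 6.21 ± 0.30 (SE, limma adjusted p = 0.000123 and 0.000163). Cyp1b1, a cytochrome gene of the aryl hydrocarbon receptor response, was the member that rose, at 9.10, 7.40 and 8.77 against 5.21 and 3.52. Its difference of 4.05 ± 0.64 lost the call without control SI SC array 1 or 3 or organoid array 3. The organoid array that was left out held Cyp1b1 at 10.78. Retinoid handling held 5 falls and 1 rise among 19 genes, led by Rdh7, a retinol dehydrogenase gene (-6.52), and Rbp2, the retinol binding protein gene of enterocytes (-4.66). The riser was Cyp26b1, which encodes a retinoic acid hydroxylase (1.72). Of the 5 falls, 3 were called without control SI SC array 1 and 3 whichever array was left out.

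Further large falls outside these lists were G6pc, the glucose-6-phosphatase gene (3.26, 3.17 and 3.38 against 9.54 and 9.07), and Reg1, which encodes a secreted regenerating islet-derived lectin (7.10, 6.07 and 5.53 against 12.23 and 12.31). The sulphate transporter gene Slc13a1 and the alcohol dehydrogenase gene Adh4 fell by 5.87 and 5.82. Among 21 intestinal transcription factors 4 fell, 0 rose and the median was -0.37, against 2.47% of all genes lower. Hnf4g was at 8.15, 8.05 and 7.97 in the sorted cells and 10.45 and 10.26 in the organoids, a fall of 2.30 ± 0.18 (SE, limma adjusted p = 0.000999). Its paralogue Hnf4a was at 11.31, 11.60 and 10.93 against 11.75 and 11.57, a difference of -0.38 that was not called. The nuclear receptor gene Nr5a2 fell by 2.80.

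**Figure D2:**
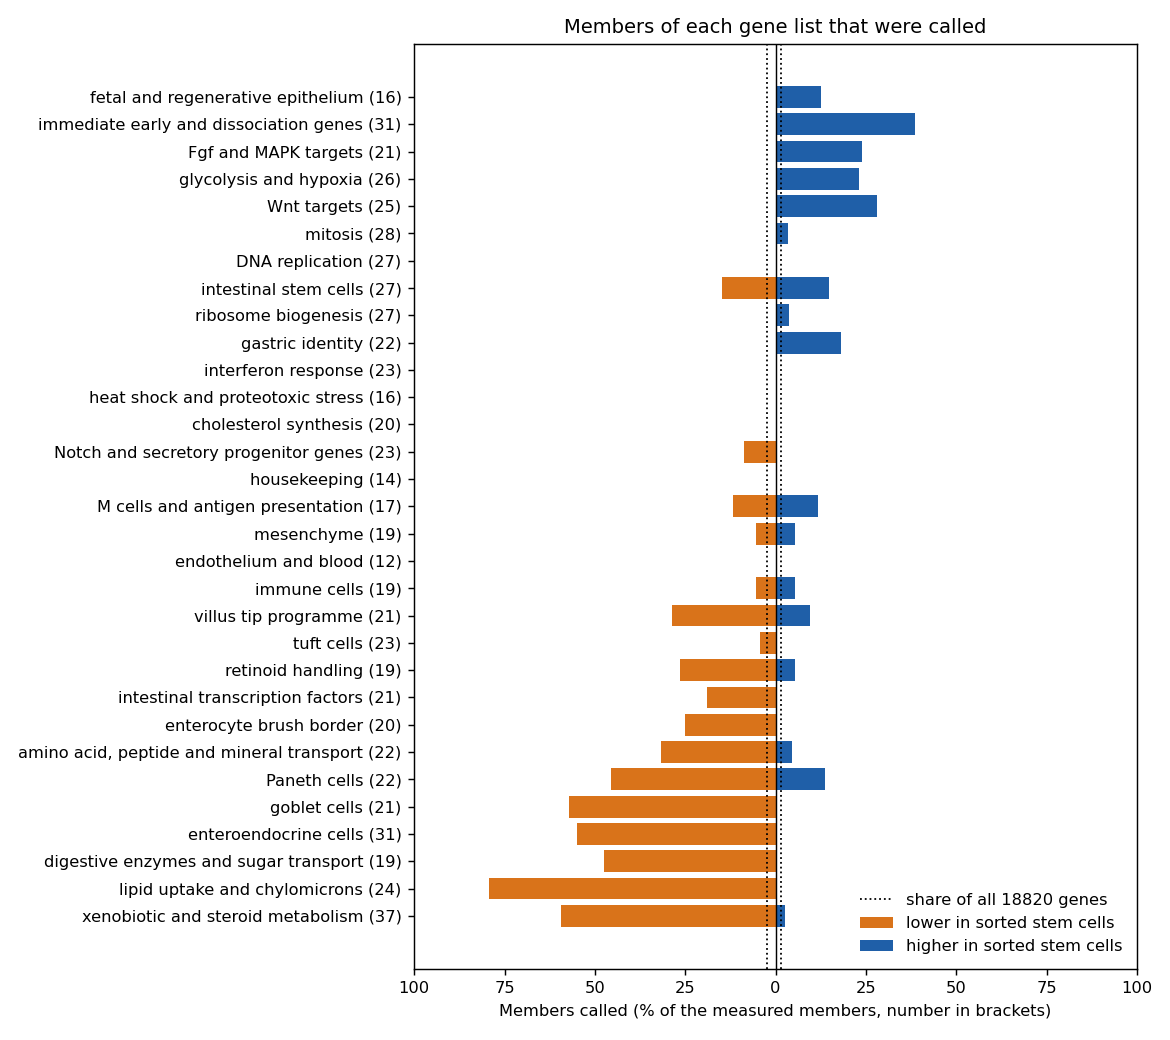
Share (%) of the measured members of 31 gene lists that were called lower (left) or higher (right) in control SI SCs, sorted by the median difference of the list, with the number of measured members in brackets and dotted lines at the shares over all 18820 genes (2.47% lower, 1.57% higher). Lipid, xenobiotic, goblet, enteroendocrine, digestive enzyme and Paneth lists reach furthest left, and immediate early genes and Wnt targets furthest right.

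Promoter sequences are shown for 4 members that stand for the groups that moved together, so that the letters near their transcription starts can be read beside the values. Each is the 250 bases before the start in RefSeq on GRCm38.p6, written 5' to 3' on the strand of the gene, with the motif found in it in capitals: Alpi for the absorptive genes (chr1:87101607-87101856, minus strand, Hnf4 motif CAAAGTCCA), Tnfrsf19 for the Wnt targets (chr14:61037988-61038237, minus strand, Tcf/Lef motif ATCAAAG), Dusp1 for the immediate early genes described below (chr17:26508473-26508722, minus strand, CRE motif TGACGTCA) and Egr2 for the same group (chr10:67537619-67537868, plus strand, CArG box).
Alpi: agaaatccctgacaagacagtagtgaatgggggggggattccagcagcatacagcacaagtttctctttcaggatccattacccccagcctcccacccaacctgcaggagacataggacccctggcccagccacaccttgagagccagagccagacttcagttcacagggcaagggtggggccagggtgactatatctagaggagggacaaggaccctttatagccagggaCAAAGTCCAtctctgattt
Tnfrsf19: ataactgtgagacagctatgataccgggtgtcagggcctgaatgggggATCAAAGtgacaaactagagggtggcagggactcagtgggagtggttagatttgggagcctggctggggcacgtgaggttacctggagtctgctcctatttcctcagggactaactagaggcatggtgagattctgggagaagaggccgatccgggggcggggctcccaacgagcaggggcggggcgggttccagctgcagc
Dusp1: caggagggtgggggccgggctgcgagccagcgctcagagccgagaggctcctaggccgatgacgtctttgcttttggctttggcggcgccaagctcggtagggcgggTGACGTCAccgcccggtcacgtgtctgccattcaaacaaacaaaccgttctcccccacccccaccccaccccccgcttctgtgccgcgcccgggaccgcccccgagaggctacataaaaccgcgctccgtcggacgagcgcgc
Egr2: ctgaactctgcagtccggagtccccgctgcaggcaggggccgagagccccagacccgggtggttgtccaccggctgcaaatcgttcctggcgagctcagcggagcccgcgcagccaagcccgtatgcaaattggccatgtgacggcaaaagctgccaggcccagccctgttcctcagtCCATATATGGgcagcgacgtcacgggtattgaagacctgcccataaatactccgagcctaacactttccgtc
Both strands were searched. Among 32851 promoters of this length the Hnf4 motif was in 0.384%, the Tcf/Lef motif in 3.21%, the CRE motif in 1.55% and the CArG box in 1.47%. These shares are per promoter, whereas the members below are counted per gene. A gene such as Egr2 has several promoters, so the counts and the shares are unlike measures. Of 59 absorptive genes that fell and had a promoter sequence, 4 held the Hnf4 motif (Alpi, Cyp2c65, Cyp3a11 and Treh). Of 7 Wnt targets that rose, 2 held the Tcf/Lef motif (Sp5 and Tnfrsf19), and of 11 immediate early genes that rose, 2 held the CRE motif (Dusp1 and Ppp1r15a) and 1 the CArG box (Egr2). A match is a run of letters and says nothing about binding.

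Markers of secretory cells were called lower in the sorted cells in 12 of 21 genes for goblet, 10 of 22 for Paneth, 17 of 31 for enteroendocrine and 1 of 23 for tuft cells, against 2.47% of all genes. Of 21 goblet cell genes 12 fell and 0 rose (median -1.81). Muc2, the gene of the main intestinal mucin, was at 7.64, 8.49 and 7.24 in the sorted cells and 11.58 and 11.21 in the organoids, a fall of 3.61 ± 0.37 (SE, limma adjusted p = 0.00307, 12.2-fold). Atoh1, which encodes the transcription factor that sets the secretory fate, was at 5.10, 6.53 and 4.58 against 8.96 and 8.59. It fell by 3.37, and the call was lost without control SI SC array 1 or either organoid array. In a whole organoid or a sorted fraction, fewer cells of a type and less RNA per cell cannot be told apart. Of the 12 goblet cell genes, 4 were called whichever array was left out, and 6 were called without control SI SC array 1, without organoid array 2 or without organoid array 3.

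Paneth cell genes went in both directions. Of 22 measured members 10 fell and 3 rose (median -1.23). The lysozyme gene Lyz1 was at 6.48, 9.55 and 8.18 in the sorted cells and at 12.37 and 12.57 in the organoids, a fall of 4.40 ± 0.78 (SE, limma adjusted p = 0.0288) that was not called without control SI SC array 3 or either organoid array. The defensin gene Defa24 was at 7.32, 8.01 and 6.77 against 9.57 and 10.36, and probes of such near-identical defensin genes may share signal. In the other direction, Pla2g2a, which encodes a secreted antimicrobial phospholipase, was at 12.76, 12.44 and 12.55 in the sorted cells and at 7.86 and 7.80 in the organoids. The rise of 4.75 ± 0.19 (SE, limma adjusted p = 0.000123, 27-fold) was called whichever array was left out. Mmp7, which encodes the protease matrilysin that matures defensins, was at 11.66, 11.94 and 11.75 against 10.81 and 10.36, a rise of 1.20 that depended on every array but organoid array 2. Wnt3, the Wnt ligand made by Paneth cells, was at 3.44, 4.30 and 3.57 against 5.63 and 6.12. Of the 10 falls, 3 were called whichever array was left out, with 5 called without control SI SC array 1 and 5 without organoid array 3.

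Enteroendocrine genes fell close to the floor of the arrays. Of 31 measured members 17 fell and 0 rose (median -1.88), and 15 falls were called whichever array was left out. The incretin gene Gip was at 4.75, 4.23 and 4.49 in the sorted cells and 10.19 and 9.82 in the organoids, a fall of 5.52 ± 0.23 (SE, limma adjusted p = 0.000123, 45.9-fold). The chromogranin gene Chga was at 5.27, 5.25 and 5.07 against 9.97 and 10.89, and the proglucagon gene Gcg at 3.69, 3.85 and 4.29 against 8.78 and 9.68. Neurog3, which encodes the transcription factor that starts endocrine differentiation, was at 4.06, 4.58 and 4.33 against 7.12 and 7.51 (a fall of 3.00). The sorted arrays lay within 1 log2 unit of each other in these 4 genes. Of 23 tuft cell genes 1 fell, the channel gene Trpm5 (a fall of 1.42), and Dclk1 was at 6.49, 5.35 and 5.75 against 7.0 and 7.53 without a call. The median of the tuft list was -0.13, with 9 members of positive sign and 14 of negative sign, and 1 of 23 is close to the share of all genes called lower.

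Genes of other states gave smaller counts, beside shares of 1.57% higher and 2.47% lower over all genes. Of 17 genes of M cells and antigen presentation 2 rose and 2 fell, and of 23 Notch and secretory progenitor genes 0 rose and 2 fell (Atoh1 and Neurog3). Hes1, the main Notch effector, was at 10.25, 10.37 and 9.65 in the sorted cells and at 9.14 and 8.76 in the organoids. Its difference of 1.14 was not called (limma adjusted p = 0.0784). The villus tip programme held 2 rises (Fos and Atf3) and 6 falls among 21 genes, with a median of -0.09.

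**Figure D3:**
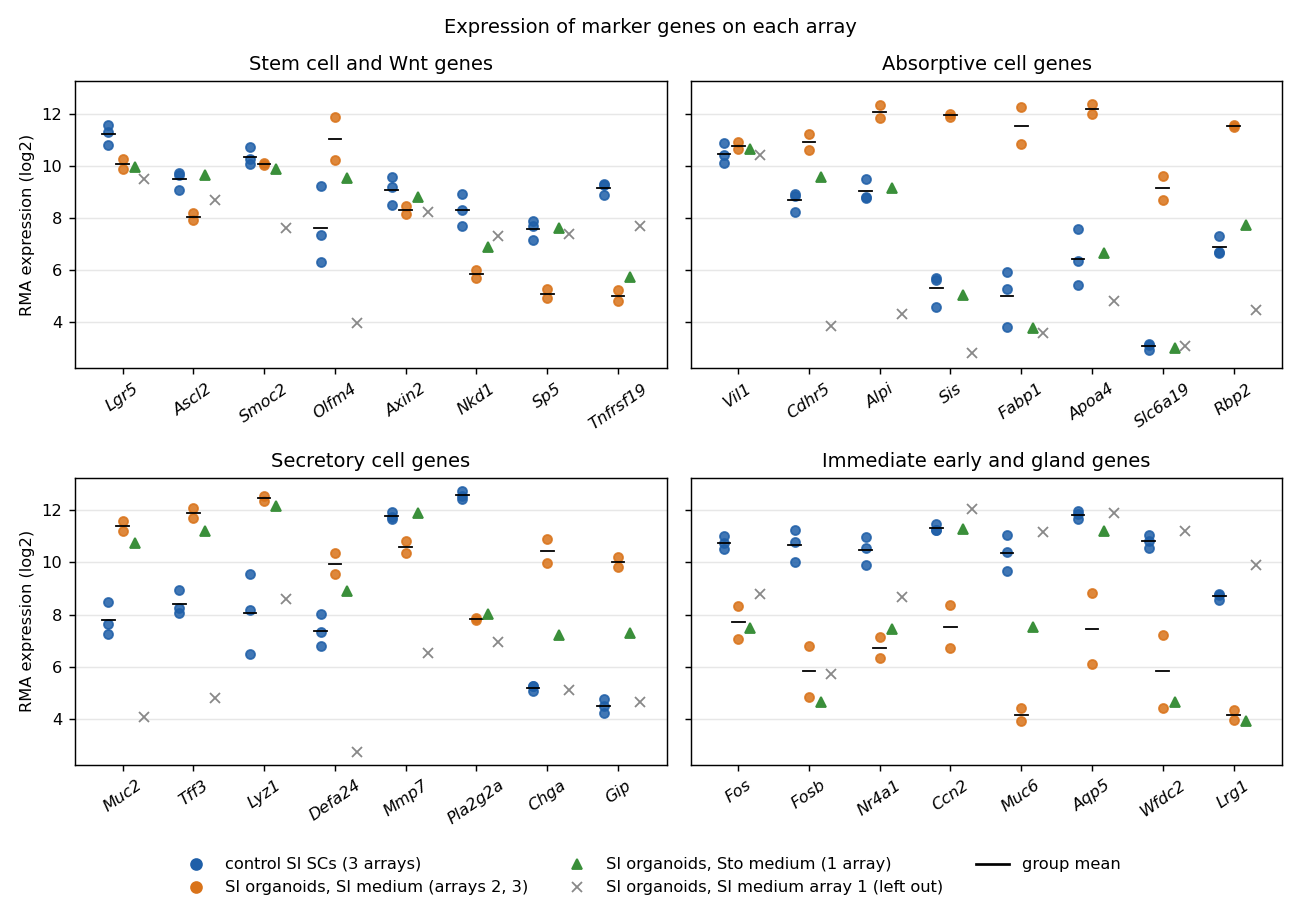
RMA expression (log2) of 32 genes on each array, with circles for the 3 control SI SC arrays and for SI organoids in SI medium 2 and 3, bars for the group means, triangles for the array of SI organoids in Sto medium and crosses for the organoid array that was left out. Absorptive genes other than Vil1 and enteroendocrine genes sit lower in the sorted cells, and Pla2g2a, Muc6 and the immediate early genes sit higher. Smoc2 overlaps between the groups, whereas Lgr5 is higher in the sorted cells without overlap and was not called.

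The largest rise was in a gland mucin. Muc6, which encodes a mucin of pyloric and duodenal glands, was at 11.05, 9.66 and 10.41 in the sorted cells and at 4.41 and 3.91 in the organoids, a rise of 6.22 ± 0.40 (SE, limma adjusted p = 0.000516, 74.3-fold). The organoid array that was left out held Muc6 at 11.16, as high as the sorted cells. Of 22 genes of gastric identity 4 rose and 0 fell, against 1.57% higher and 2.47% lower over all genes. The list median was 0.42, with 7 members of negative sign. With the left-out organoid array back in its group, the list held 0 rises, 0 falls and a median of -0.56. That array was left out for its stomach-like profile, so the choice of arrays bears directly on these genes. Without organoid array 3 the list held 2 rises and 3 falls, and without control SI SC array 1 it held 2 rises. Beside Muc6, those that rose were the water channel gene Aqp5 (4.38), the gastrokine gene Gkn3 (1.36) and the protease-like gene Capn6 (1.75). Aqp5 was at 11.87, 11.96 and 11.69 against 8.82 and 6.10, so that the organoid arrays differed from each other by more than 2 log2 units. The organoid array that was left out held Aqp5 at 11.88. Of the 4 rises, that of Muc6 was called whichever array was left out. Anxa10, an annexin gene of gastric epithelium, was at 6.33, 6.58 and 6.02 in the sorted cells and 10.39 and 8.06 in the organoids, with no overlap and no call (limma adjusted p = 0.0533). The surface mucin gene Muc5ac was at 3.47 to 3.69 and the gastrokine gene Gkn2 at 3.38 to 3.68 on all 5 arrays. Cldn18, a gastric claudin gene, was at 5.49, 7.31 and 7.65 against 5.42 and 3.94, without a call (limma adjusted p = 0.2).

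Other large rises were spread over genes of different kinds. Wfdc2, a protease inhibitor gene of epithelial secretions, was at 11.07, 10.81 and 10.55 against 7.22 and 4.42, and lost its call with sex as a term. Lrg1, which encodes a secreted leucine-rich glycoprotein, was at 8.78, 8.75 and 8.57 against 4.34 and 3.95 (a rise of 4.56 ± 0.20 SE, limma adjusted p = 0.000137). Trf, the transferrin gene, was at 12.29, 12.12 and 12.26 against 8.60 and 7.58. Sbspon, an extracellular matrix gene, and Crip2, a LIM domain gene, rose by 4.20 and 4.10. The organoid array that was left out lay above both other organoid arrays in all 5 genes. It held Wfdc2 at 11.19, Lrg1 at 9.90, Trf at 11.70, Sbspon at 6.37 and Crip2 at 11.26. In each of these 5 genes organoid array 2 lay above organoid array 3, as it did in 239 of the 296 genes that rose and in 69.8% of all genes.

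Immediate early genes, which are transcribed within minutes of a stimulus and also when tissue is taken apart, were the list with the highest share of rises. Of 31 measured members 12 rose and 0 fell (median 1.16), against 1.57% of all genes, and 8 were called whichever array was left out. The AP-1 gene Fos was at 11.03, 10.75 and 10.52 in the sorted cells and 7.07 and 8.33 in the organoids, a rise of 3.07 ± 0.38 (SE, limma adjusted p = 0.00694). Fosb was at 11.26, 10.79 and 10.01 against 4.83 and 6.81, a rise of 4.87 ± 0.61 (limma adjusted p = 0.00733). The nuclear receptor gene Nr4a1 was at 10.96, 10.57 and 9.91 against 7.14 and 6.32. Ccn1 and Ccn2, which encode matricellular proteins and are targets of YAP, rose by 3.55 and 3.78, Egr2 by 3.67, and the MAP kinase phosphatase gene Dusp1 by 2.60. Egr1 was at 10.61, 10.12 and 10.32 against 7.96 and 9.42, with no overlap and no call (limma adjusted p = 0.0933). The list of heat shock genes, another sign of stress, held 0 calls among the 16 of its 20 genes that were measured (median 0.35). Its defining markers Hspa1a and Hspa1b were not among the genes analysed, so the count says nothing about them. Dissociation was part of the sort alone, and its part in these rises was not tested.

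Fgf and MAPK targets held 5 rises and 0 falls among 21 genes (median 0.88), against 1.57% of all genes higher. None of the 5 genes that rose was called in every one of the 5 fits that left out an array. They were Etv4, Etv5, Phlda1, Epha2 and Hbegf, with rises of 1.16 to 2.16. Dusp6, the feedback phosphatase of ERK, was at 10.05, 10.31 and 9.29 against 9.45 and 8.30, and the groups overlapped. The sorted cells' medium held Fgf10 and that of the organoids did not, but the part of Fgf10 in these rises was not tested. Glycolysis and hypoxia genes held 6 rises and 0 falls among 26 genes (median 0.85), led by the adrenomedullin gene Adm (3.41), the prolyl hydroxylase gene P4ha2 (2.56) and the mitophagy gene Bnip3 (2.00). The counts were 2 without organoid array 3 and 3 without control SI SC array 1. The glycolytic genes Gapdh and Ldha differed by 0.06 and 0.21 and were not called.

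Fetal and regenerative genes had a list median of 1.31, with 2 rises (Ccn1 and Ccn2) among 16 genes, against 1.57% of all genes. Ly6a, a defining marker of the list, was not among the genes analysed. Here the organoid arrays disagreed: Anxa1 was at 8.41 on array 2 and 4.71 on array 3, and Clu at 11.63 and 9.16, whereas the sorted cells were at 8.71 to 9.73 and 11.46 to 11.87. Without organoid array 2 the list held 10 rises and a median of 2.61, and without organoid array 3 it held 3 rises and a median of 0.13. Interferon response and cholesterol synthesis held 0 calls among 23 and 20 genes.

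Lists of cells outside the epithelium held few calls. Summed on the linear scale over 19 mesenchyme genes, the signal was 640 to 975 in the sorted arrays and 525 and 576 in the organoids, and over 19 immune genes 609 to 667 and 408 and 627. The 12 genes of endothelium and blood held 0 calls and sums of 253 to 273 and 258 and 283. Over all genes 1.57% were called higher and 2.47% lower, and 1 call of 19 in a direction is close to those shares. The mesenchyme list held 1 rise and 1 fall. Fn1, the fibronectin gene, was at 9.04, 9.29 and 8.16 in the sorted cells and 5.83 and 3.96 in the organoids. Vim, the vimentin gene and a defining marker of the list, was at 5.91, 5.36 and 5.55 against 7.71 and 7.69. The organoid array that was left out held Fn1 at 11.91 and Vim at 6.02. These 2 genes thus lay well above the array medians in opposite groups, whereas the other defining markers, Col1a1 and Col1a2, are collagen genes and were not called. The immune list likewise held 1 rise and 1 fall. Cd68, a lysosomal glycoprotein gene, was at 8.56, 8.70 and 8.51 against 6.27 and 5.19. The lysozyme gene Lyz2, a defining marker of the list, was at 3.78, 4.95 and 4.37 against 6.62 and 8.50, and it is closely related to the Paneth cell gene Lyz1, which fell too. The other defining immune markers, Ptprc and the T cell gene Cd3e, were not called. The part of other cells in the differences between the groups was not tested.

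A further array gave a view of organoids in the medium of the sorted cells. It held SI organoids in Sto medium, unsorted, and with 1 array no test was possible. On a scale from the mean of SI organoids in SI medium (0) to the mean of control SI SCs (1), 379 of the 464 genes that fell lay nearer the sorted cells on this array, with a median position of 0.87. Of the 296 genes that rose 211 did, with a median of 0.73. The 2 groups used for the scale are the ones that chose the genes, and the position of this array was not used in the choice.

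Absorptive and goblet cell genes took different positions. Of the 67 absorptive genes that fell, 64 lay nearer the sorted cells, with a median position of 0.94. In Sto medium the organoids held Sis at 5.04, Fabp1 at 3.76 and Slc6a19 at 3.02, values inside or under the range of the sorted cells. Of the 12 goblet cell genes that fell, 1 lay nearer the sorted cells and 11 nearer the organoids in SI medium, with a median position of 0.19. Muc2 was at 10.76 on this array, Tff3 at 11.20, Atoh1 at 8.15 and Spink4 at 11.77. Lyz1 was likewise at 12.16, close to the organoids in SI medium. Enteroendocrine genes lay between, with a median position of 0.61 and Gip at 7.30, Chga at 7.21 and Neurog3 at 6.66.

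Among the genes that rose, Wnt targets divided. Sp5 (7.62), Ascl2 (9.64), Cd44 (11.27) and Ptk7 (8.27) lay at the level of the sorted cells on this array, whereas Tnfrsf19 (5.74), Prox1 (4.79) and Nkd1 (6.89) lay nearer the organoids in SI medium. Pla2g2a was at 8.0, near the organoids. Of the 12 immediate early genes 7 lay nearer the sorted cells, among them Ccn2 (11.27) and Dusp1 (9.70), and 5 nearer the organoids, among them Fos (7.48), Fosb (4.63), Egr2 (4.53) and Nr4a1 (7.43). Muc6 was at 7.52, between the groups, and Lrg1 (3.93) and Wfdc2 (4.64) lay with the organoids. Lgr5 was at 9.95, within the range of the organoids in SI medium.

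**Figure D4:**
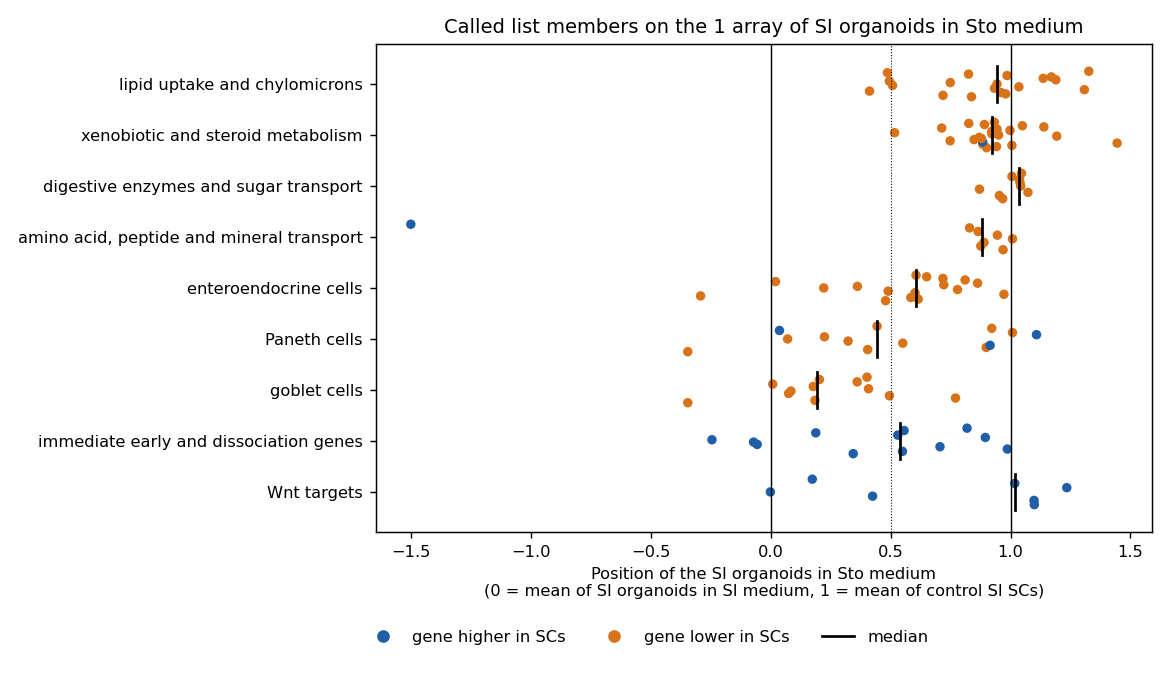
Position of the 1 array of SI organoids in Sto medium for the called members of 9 gene lists, on a scale where 0 is the mean of SI organoids in SI medium and 1 the mean of control SI SCs, with 1 point per gene and a bar at the median. Genes of the absorptive lists drawn gather near 1 and goblet cell genes near 0 (median 0.19). The median was 0.94 over all 67 absorptive genes that fell, which include brush border and retinoid lists that are not drawn.

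A contrast of like labels was available for stomach, as control Sto SCs (n = 2) against Sto organoids in SI medium (n = 2), with no array in common with the intestinal contrast. The study gives SI medium as its stomach differentiation medium and states that control Sto SCs depended on Wnt, Fgf and gastrin to grow. Control SI SCs could be passaged in either medium. An effect of organ and an unlike effect of SI medium on the cultures therefore cannot be told apart below. The stomach arrays were of the same genotype, and their sorted cells came from clonal organoids in Sto medium. The difference between the organs was tested as an interaction on 9 arrays. It was called in 855 genes (4.54%), of which 308 (1.64%) were higher and 547 (2.91%) lower in the intestinal than in the stomach contrast. With each array centred on its median over genes, the median difference of all genes moved from 0.03 to 0.28 and the share of calls that were higher from 36.0% to 60.8%. The stomach contrast itself held 1774 calls (9.43%), 1055 (5.61%) higher and 719 (3.82%) lower in the sorted cells.

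Lgr5 gave 1 of the large differences between organs. It was at 10.77 and 11.14 in control Sto SCs but 4.20 and 4.32 in the stomach organoids, a rise of 6.70, against 1.12 in the intestine. The difference of -5.57 ± 0.37 (SE) had a limma adjusted p of 9.91e-05. Ascl2 and Smoc2 showed the same order, with rises of 4.83 and 3.30 in the stomach and differences of -3.38 and -3.02 (limma adjusted p = 0.0036 and 0.0012). Proliferation followed: of 28 mitosis genes 27 rose in the stomach contrast and 15 had a called difference between the organs. The shares over all genes were 5.61% and 4.54%. Mki67 was at 9.95 and 10.26 in control Sto SCs and 6.67 and 7.70 in Sto organoids (difference -2.31, limma adjusted p = 0.041).

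Of the 760 intestinal calls, 277 were also called in the same direction in the stomach (158 higher, 119 lower), and 12 were called in the opposite direction. The 277 are 36.4% of the intestinal and 15.6% of the stomach calls. Over all genes 9.43% were called in the stomach contrast and 4.04% in the intestinal one. A called difference was found for 58 of the 296 genes that rose and 249 of the 464 that fell. These genes were chosen for their intestinal difference, which is also a term of the interaction, so that the choice raises these counts and those for the absorptive genes, and they are a description. Among the 67 absorptive genes that fell, 43 had a called difference, Sis (-6.66) and Slc26a3 (-5.76) among them, and 28 also fell in the stomach, Alpi and Myo1a among them. Stomach organoid array 2 held Alpi at 10.51 and array 1 at 6.07. Tnfrsf19, Sp5, Muc6, Pla2g2a and Trf rose in both organs, and none of their differences between organs was called. The stomach rises were 4.51, 2.43, 5.56, 5.06 and 4.49. Of these, Pla2g2a was at 5.99 and 11.57 on the 2 arrays of control Sto SCs. Among immediate early genes 15 of 31 rose in the stomach, Fos by 2.27 and Fosb by 6.60, against 5.61% of all genes. The difference between organs was called in 2 of 31, near the 4.54% over all genes. A difference that was not called does not show that the organs moved alike: that of Fos was 0.79 ± 0.49 (SE) and that of Fosb -1.73 ± 0.83.

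**Figure D5:**
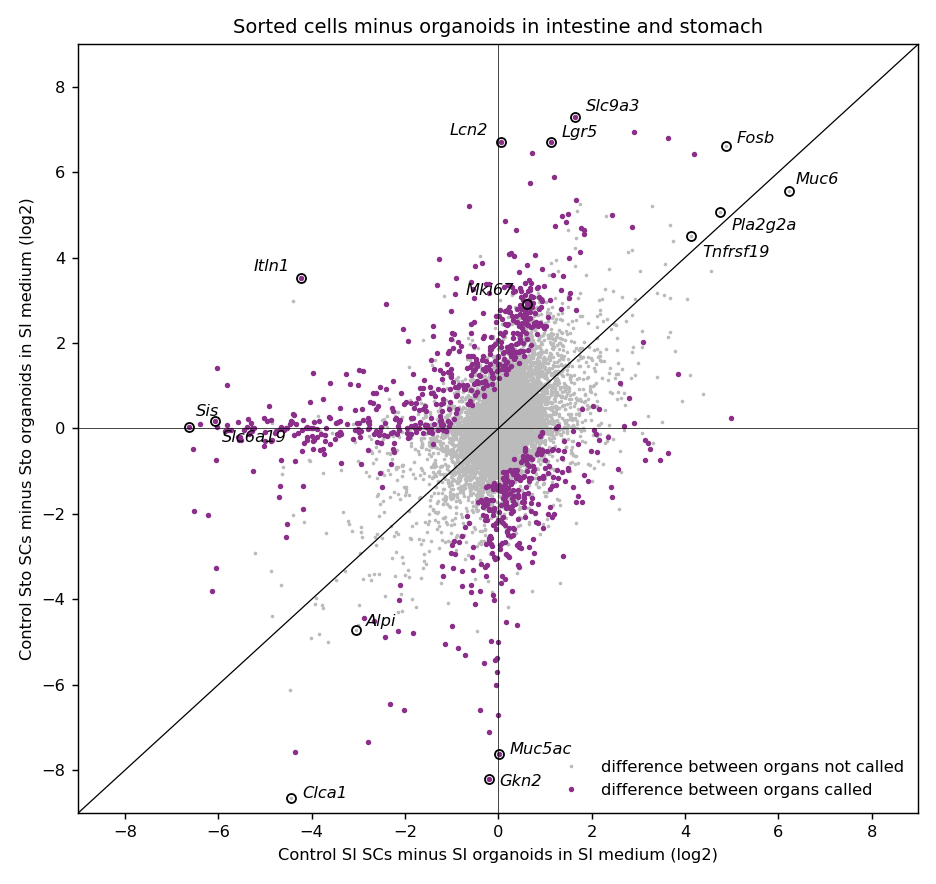
Difference between sorted stem cells and organoids in SI medium (log2) in the intestine (horizontal, 3 against 2 arrays) and the stomach (vertical, 2 against 2), with 1 point per gene, the 855 genes with a called difference between the organs in colour and a line of equality. Muc6, Pla2g2a, Tnfrsf19 and Fosb lie near the line, Sis and Slc6a19 fell in the intestine and were not called in the stomach, Muc5ac and Gkn2 were lower in the sorted cells of the stomach, and Lgr5 rose further in the stomach. Sis and Slc6a19 were near the floor on all stomach arrays.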

How the data were processed

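Expression was measured on Affymetrix Mouse Gene ST arrays. The authors normalized the arrays with the RMA-sketch algorithm of Affymetrix Power Tools and deposited log2 values for each probe set, and 2 of the 5 arrays compared carried log2 values of a linear signal rounded to 1 decimal. The algorithm is stated for the study as a whole, and whether those 2 arrays were normalized with the others is not given in the sources used here. Probe sets were named from the platform annotation, with symbols updated. Of 35556 probe sets, 21218 had 1 gene symbol, 1881 had several and 12457 had none, and the last 2 kinds were left out. For the 1386 genes with more than 1 probe set, the probe set of highest mean signal across the 14 arrays stood for the gene, which left 18820 genes.

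Groups were taken from the labels. Control SI SCs (n = 3) were compared with SI organoids in SI medium 2 and 3 (n = 2) by lmFit and eBayes of limma 3.58.1 in R 4.3.3, on those 5 arrays, with no covariate. A gene was called at a Benjamini-Hochberg adjusted p under 0.05 and a difference of at least 2-fold. The interaction with the stomach contrast was fitted on 9 arrays. The tests were tried on simulated data. The arrays compared, the members and the gene lists were chosen with earlier results of these data known, and 31 lists were counted. Named genes were Cdx2 and Lgr5, the 12 called genes with the largest rise and the 12 with the largest fall (predicted genes left out), the defining markers of each list, up to 5 called members of each list per direction by smallest adjusted p, and the 6 largest called interactions in each direction. Abcg5, Abcg8, Anxa10, Apob, Cyp2c65, Egr2, Enpep, Gcg, Npc1l1, Ppp1r15a, Spink4 and the genes called with organoid array 1 were named after their values were seen. List members with no probe set of 1 symbol were not analysed here. Alternatives were other arrays in the fit, export type, replicate number or sex as a term, other normalizations, a filter on dim genes, other probe sets, other eBayes settings, the methods' t-test and leaving out each array. Arrays give no read depth, and precision rests on the number of arrays.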

Additional observations from a re-analysis of the deposited data

Results flagged for a closer look

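The genes below stood out because the difference between sorted stem cells and organoids in SI medium itself differed between intestine and stomach (limma interaction on 9 arrays, at an adjusted p under 0.05). Each value is the intestinal minus the stomach difference on the log2 scale. The most negative were Itln1 (-7.75), Reg1 (-7.45), Cfhr2 (-6.83), Sis (-6.66), Lcn2 (-6.65) and 2010106E10Rik (-6.50). The most positive were Gkn2 (7.99), Muc5ac (7.65), Chil4 (6.91), Atp6v0d2 (6.70), Mucl3 (6.20) and Gkn1 (5.94). Lgr5 differed by -5.57. For Gkn2 and Muc5ac the difference came from the stomach contrast (-8.20 and -7.63), with intestinal values near the floor of the arrays. The call for Reg1 (adjusted p = 0.0453) was lost when any 1 of 7 of the 9 arrays was left out. That for Chil4 was lost without control SI SC array 1, SI organoid array 3 or Sto organoid array 2, and that for Mucl3 without either Sto organoid array or control Sto SC array 2.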

How the results depend on the processing

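With SI organoid array 1 back in its group, 5 genes were called (3 higher, 2 lower), and Cdhr5 (0.12), Tm4sf20 (0.55) and Capn6 (-0.83) changed sign. With sex as a term 372 genes were called (131 higher, 241 lower). Median centring gave 482 higher genes. Leaving out 1 array gave 368 to 719 called genes, 90 to 363 higher and 270 to 489 lower. The methods' t-test called 953 genes at an unadjusted p and 0 after Benjamini-Hochberg (0 higher, 0 lower, smallest adjusted p = 0.0824, 2009 genes at an unadjusted p under 0.05), against 2828 for limma. The higher share of calls was 38.9% in all, 49.1% without dim genes, 50.7% without organoid array 2 and 22.4% without organoid array 3. Replicate numbers 2 and 3 are in both groups but no label says that they pair arrays. The deviations of same-numbered arrays from the group means correlated at 0.26 (number 2) and 0.40 (number 3), and at 0.35 over these numbers alone. With 2 organoid arrays their deviations mirror each other, so these values are not separate evidence of pairing. Control SI SC array 1 gave 0.19 with organoid array 2, and both arrays of number 3 share the other export form. With the replicate block 907 genes were called (381 higher, 526 lower). The interaction gave 1384 calls (538 higher, 846 lower) with export type as a block, 1287 (591 higher) with quantile normalization and 1492 (907 higher) with median centring. Leaving out 1 of its arrays gave 437 to 1090 calls, 151 to 603 higher and 283 to 608 lower. The cause of these shifts was not tested. All other counts over genes stayed within 1.5 times the reported ones. Of 119 called genes that were named, 81 kept their call with sex as a term and 77 in all 5 fits that left out an array. With 3 and 2 arrays, the number of arrays limits precision, and genes near the array median have compressed folds.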
